A study of Homo sapiens with 6 samples.

Results

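This account describes 1123 RUNX1 sites that were listed after AI-10-49 but not in DMSO and whose summits lay in short gaps between H3K27ac regions. They were chosen from the 10319 RUNX1 peaks of AI-10-49-treated cells in 4 steps. A peak had to overlap no RUNX1 peak of DMSO-treated cells, which 8783 did (85.1%). The DMSO RUNX1 list held only 1701 peaks, covering 0.394 Mb against 3.49 Mb in AI-10-49. A list this short by itself leaves most AI-10-49 peaks without an overlap. The peak also had to overlap an H3K27ac region of AI-10-49-treated cells, which 7651 of the 8783 did (87.1%). Its summit, the position with most fragments, had to lie in none of those regions, which left 1501 sites. Finally, a region had to end within 1 kb to the left of the summit and another to start within 1 kb to the right of it, by chromosome coordinate, which left the 1123 sites. The choice used both RUNX1 lists and the AI-10-49 H3K27ac list, so values from those lists are descriptions of how the sites were chosen. The DMSO H3K27ac list took no part in the choice.

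All samples were ME-1 cells, a human leukemia line with inv(16), the chromosome 16 inversion that fuses CBFB to MYH11. Cells were kept for 6 h with DMSO, the solvent, or with 1 µM AI-10-49, a small molecule that keeps the fusion protein CBFβ-SMMHC from binding RUNX1. Antibodies to RUNX1 and to histone H3 acetylated at lysine 27 (H3K27ac) were used for the immunoprecipitation, giving 4 libraries with a peak list, and 2 input libraries were not used here. Each antibody and treatment had 1 library, so no difference between treatments can be set against a spread between replicates, and no p-value is given. Intervals after a share are exact Clopper-Pearson intervals (95%) over sites. They cover the sampling of sites and not the variation between cultures.

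RUNX1 is a DNA-binding transcription factor of blood cell development, and CBFβ is the partner that strengthens its hold on DNA. An active enhancer or promoter is typically a stretch of DNA that transcription factors keep free of nucleosomes, with nucleosomes on either side. H3K27ac is carried by the histones of those neighbouring nucleosomes, so that its signal often dips where a factor sits. A gap in a peak list is such a dip only if the signal fell below the threshold of the peak caller. A gap therefore means that no region was called there, not that acetylation was absent.

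Read totals recovered from the peak lists were 31.5 M (mega) reads for RUNX1 and 37.0 M for H3K27ac after AI-10-49, and 33.8 M and 35.7 M in DMSO. The smaller of a ChIP library and its input limits a list. In AI-10-49 that depth was 0.812 of the DMSO depth for H3K27ac and 0.816 for RUNX1. The shortest RUNX1 peak, taken as the fragment length, was 1.13 times longer in AI-10-49 than in DMSO. H3K27ac regions covered 62.4 Mb in AI-10-49 and 68.7 Mb in DMSO, and the shortest space between neighbouring regions was 45 bp in either list. Lower depth, less covered sequence and the drug all go with the AI-10-49 H3K27ac list. Their parts in any difference between the H3K27ac lists cannot be told apart. For the RUNX1 lists, depth, fragment length and the drug likewise cannot be told apart.

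The gaps were narrow. Around the 1123 summits the AI-10-49 gap had a median width of 177 bp, with quartiles of 123.5 and 255 bp and a range from 45 to 1033 bp. In 939 sites (83.6%) it was at most 300 bp wide, and in 40 sites it was over 500 bp. All 33508 AI-10-49 gaps of up to 2 kb had a median of 235 bp, with quartiles of 119 and 563 bp. The lower quartiles were thus close, and the sites differed from all gaps mainly in holding few wide ones. The summit lay a median of 46 bp from the nearer region and 125 bp from the farther region. Summits were spread across their gaps, with a median relative position of 0.52 on a scale from 0 at the left end to 1 at the right end and quartiles of 0.3 and 0.73. The RUNX1 peak itself, with a median width of 280 bp, reached into both neighbouring regions at 625 sites (55.7%), into the left region only at 216 and into the right region only at 282.

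Among all 33508 AI-10-49 gaps of up to 2 kb, the share that held one of these summits was highest at intermediate width. It was 2.57% (2.2 to 2.97) for gaps of 45 to 100 bp and 6.52% (5.97 to 7.1) for gaps of 100 to 200 bp. Gaps of 200 to 300 bp gave 5.25% (4.66 to 5.89), gaps of 300 to 500 bp 3.08% (2.61 to 3.62) and gaps of 500 to 1000 bp 0.762% (0.54 to 1.04). The peak had to reach a neighbouring region, which by itself keeps out summits in the middle of wide gaps. No 2 of the 1123 sites shared a gap.

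The limit of 1 kb shaped few of the sites. The 3 sites closest to it on the inner side had their farther region at 998 bp (19q13.32, chr19:46272559-46272837), 879 bp (4q13.3, chr4:75557851-75558214) and 872 bp (17q12, chr17:34409958-34410325). Just beyond it lay sites with the farther region at 1002 bp (7p12.2, chr7:50306472-50306805), 1051 bp (16q24.1, chr16:85343401-85343675) and 1080 bp (1p34.3, chr1:38156130-38156336). All positions are 1-based in hg19 and are given with their cytoband, because no gene annotation of that build was used here. Each of the 3 inner sites also lay in a DMSO gap, and those gaps were narrower, at 293, 278 and 765 bp against 1033, 1027 and 946 bp in AI-10-49. These sites were picked for a distant AI-10-49 region, which by itself favours a narrower DMSO gap, so the widths are a description.

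As RUNX1 sites, the 1123 resembled other sites of the AI-10-49 list only. Fragments over the summit, recovered from the deposited values and given per M ChIP reads, had a median of 1.05 (quartiles 0.793 and 1.46). The 6150 sites of the AI-10-49 list only whose summit lay inside an AI-10-49 H3K27ac region had a median of 0.984 (quartiles 0.762 and 1.4). The 1536 AI-10-49 sites that overlapped a DMSO site stood higher, with a median of 2.03. The authors' fold enrichment at the summit had a median of 6.59 in gaps and 6.39 inside regions. A RUNX1 site of DMSO lay within 1 kb of 5 of the 1123 gap sites (0.445%, 0.145 to 1.04) and of 128 of the 6150 sites inside regions (2.08%, 1.74 to 2.47). Sites that overlapped a DMSO site had been removed from both sets by the choice, so these shares are a description.

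The 15 gap sites with the highest RUNX1 −log10 q came from 11 chromosomes. Their summits held 96 to 165 fragments, and their AI-10-49 gaps were 58 to 375 bp wide. In DMSO, 6 of the 15 summits were inside an H3K27ac region, 8 were in a gap and 1 had a region on 1 side only. The map of these sites shows the 3 arrangements side by side.

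**Figure D1:**
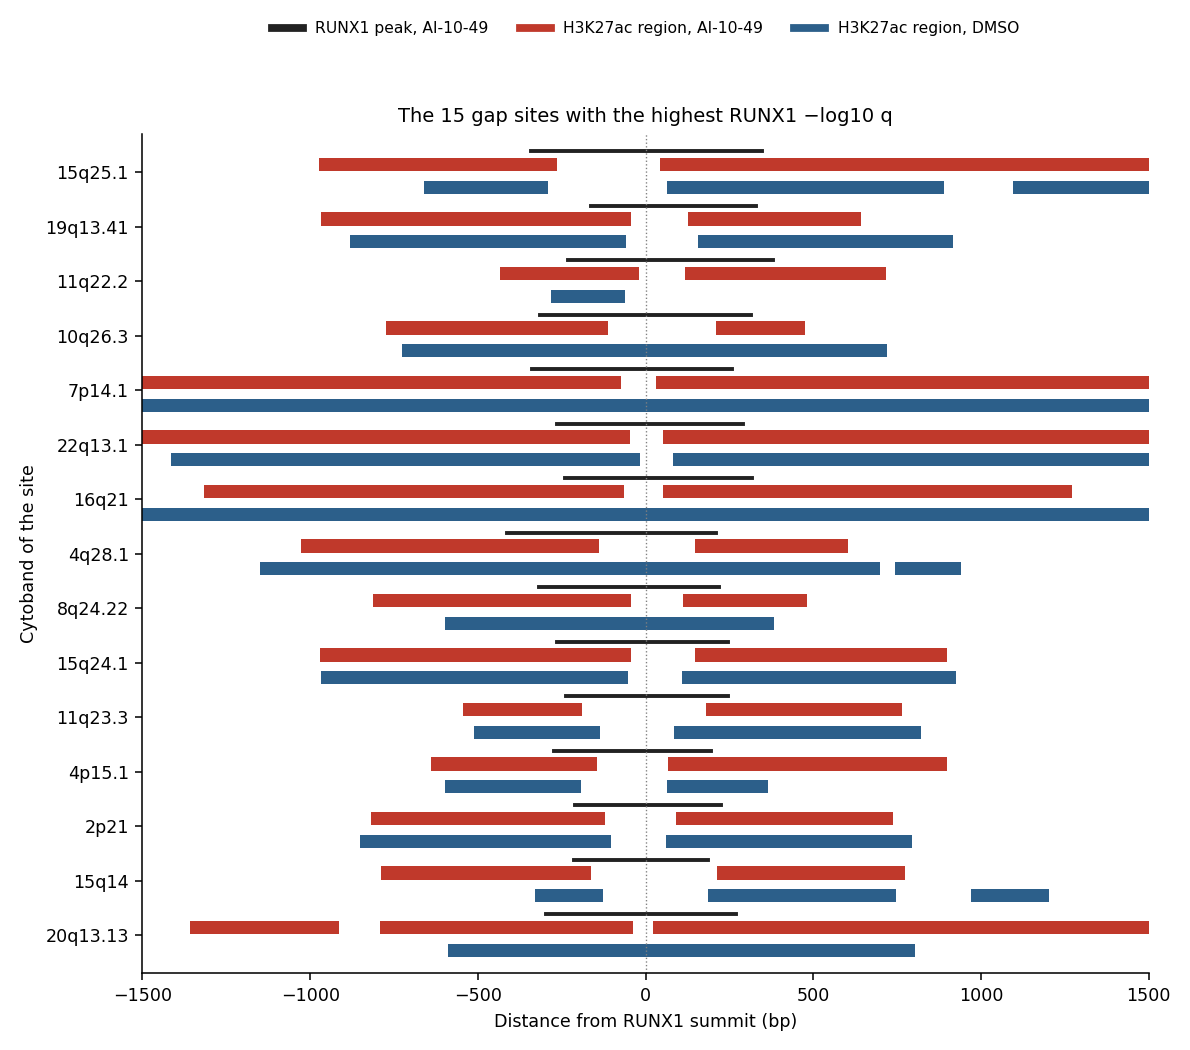
Positions of the RUNX1 peak of AI-10-49 (black), the AI-10-49 H3K27ac regions (red) and the DMSO H3K27ac regions (blue) around the RUNX1 summit, in bp from the summit, for the 15 gap sites with the highest −log10 q, labelled by cytoband. Red bars stop on either side of the summit at all 15 sites, and blue bars cross it at 6 of them.

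The highest-ranked site lay in 15q25.1 at chr15:80935756-80936445, with 145 summit fragments (95% counting interval 122 to 171) and a fold enrichment of 33.0. Its AI-10-49 gap was 307 bp wide, between regions ending 265 bp to the left and starting 43 bp to the right of the summit. The DMSO list, in which no RUNX1 site was called here, had a gap of 353 bp at the same place. The flanking H3K27ac summits had 1.46 (left) and 1.7 (right) fragments per M reads in AI-10-49, and 0.869 and 1.6 in DMSO.

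The site in 19q13.41 (chr19:52239316-52239807, 115 fragments, fold 32.5) had a similar layout, with gaps of 169 bp in AI-10-49 and 212 bp in DMSO. In 22q13.1 (chr22:37638396-37638949), the gap site with most fragments in the whole set (165, interval 141 to 192), the gap measured 97 bp in AI-10-49 and 98 bp in DMSO. Its position was not the same, since the left region ended 47 bp from the summit in AI-10-49 and 16 bp from it in DMSO. In 11q23.3 (chr11:115579997-115580479, 139 fragments) the gap was 368 bp in AI-10-49 and 222 bp in DMSO. The sites in 15q24.1 (chr15:74833163-74833671, 117 fragments), 2p21 (chr2:42979449-42979884, 108 fragments) and 15q14 (chr15:39689182-39689582, 109 fragments) had AI-10-49 gaps of 191, 212 and 375 bp and DMSO gaps of 162, 165 and 310 bp. In 4p15.1 (chr4:32033831-32034297, 96 fragments, fold 31.2) the order was the reverse, with 209 bp in AI-10-49 and 258 bp in DMSO. Among the 15 highest-ranked sites, 8 lay in a gap of both lists, and the AI-10-49 gap was wider at 4 of these and narrower at 4.

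At the other foremost sites DMSO had a continuous region. In 10q26.3 (chr10:133575449-133576079, 126 fragments, fold 25.4) a DMSO region from 133575039 to 133576484 covered the summit. In AI-10-49 the stretch was listed as 2 regions, 133574991 to 133575653 and 133575975 to 133576239, with 321 bp between them. The left ends nearly coincided between the lists, and the DMSO region reached farther to the right. Summit H3K27ac was 2.1 fragments per M reads in the DMSO region, and 1.24 (left) and 0.703 (right) in the AI-10-49 regions.

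In 4q28.1 (chr4:124520861-124521484, 112 fragments) a DMSO region with 2.35 fragments per M reads stood in the place of 2 AI-10-49 regions with 0.946 and 1.32, separated by 284 bp. In 16q21 (chr16:66550643-66551200, 151 fragments, fold 16.6) the DMSO region had 7.03 fragments per M reads, and the AI-10-49 regions, 113 bp apart, had 3.06 and 4.6. The site in 7p14.1 (chr7:41921131-41921726, 116 fragments) had 3.7 fragments per M reads in the DMSO region, between the 4.65 (left) and 3.27 (right) of the AI-10-49 regions, and a gap of 102 bp was called. In 8q24.22 (chr8:133907711-133908249, 121 fragments) the levels were close, with 1.4 fragments per M reads in the DMSO region and 1.35 and 1.03 in the AI-10-49 regions, 155 bp apart. The narrowest gap among the 15, 58 bp in 20q13.13 (chr20:47243127-47243693, 131 fragments), lay where a DMSO region of 1.88 fragments per M reads was continuous and the AI-10-49 regions had 1.76 and 2.57.

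The site in 11q22.2 (chr11:102187842-102188454, 136 fragments, fold 24) was the highest-ranked with neither arrangement. DMSO had a region ending 62 bp to the left of its summit, and the next region on the right began 5050 bp away. In AI-10-49 a region of 1.57 fragments per M reads began 117 bp to the right. Similar sites in 20q13.2 (chr20:52516093-52516560, 76 fragments), 4p14 (chr4:39640412-39640849, 70 fragments), 12q24.11 (chr12:111333114-111333492, 65 fragments) and a further one in 15q25.1 (chr15:80872362-80872765, 69 fragments) had a DMSO region within 1 kb on 1 side only. In 12q24.11 the DMSO region on the other side began 1042 bp away, just past the limit.

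The main comparison asks what the DMSO H3K27ac list held at the same summits. Of the 1123 summits, 611 (54.4%, 51.4 to 57.4) lay inside a DMSO region and 461 (41.1%, 38.2 to 44.0) lay in a DMSO gap by the same rule. A DMSO region within 1 kb on 1 side only was found at 43 (3.83%), and at 8 (0.712%) there was none within 1 kb on either side. Nearly all the sites were thus in or beside chromatin that was called acetylated in DMSO, as were most of all 8783 AI-10-49-only sites. Of the 8783, 77.6% lay inside a DMSO region and 10.7% in a DMSO gap. A further 5.25% had a region on 1 side only, and 6.43% had none. Unlike the 8783, the 1123 sites were all required to overlap an AI-10-49 H3K27ac region. The 211 AI-10-49 gap sites that overlapped a DMSO RUNX1 site and met the other conditions gave 55.9% (48.9 to 62.7) inside a DMSO region and 38.9% (32.2 to 45.8) in a DMSO gap. These shares were close to those of the 1123 sites, and the intervals overlap. Overlap alone does not decide whether sites listed in AI-10-49 only differ from sites listed in both.

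Of the 6150 sites inside AI-10-49 regions, 95.2% (94.6 to 95.7) were inside a DMSO region and 3.61% (3.16 to 4.11) were in a DMSO gap. A gap in AI-10-49 therefore went with a gap in DMSO far more often than a covered summit did, 41.1% against 3.61%. The plot of H3K27ac coverage around the summit shows the 2 main classes apart. At 200 bp on the left and right of the summit, AI-10-49 regions covered 88.6% and 90.3% of the 1123 sites and DMSO regions covered 92% and 91.9%. At 1 kb the shares were 43.5% and 42.9% in AI-10-49 and 47.1% and 46.9% in DMSO. The sites inside AI-10-49 regions had broader acetylation, with 63.7% and 63.8% covered at 1 kb.

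**Figure D2:**
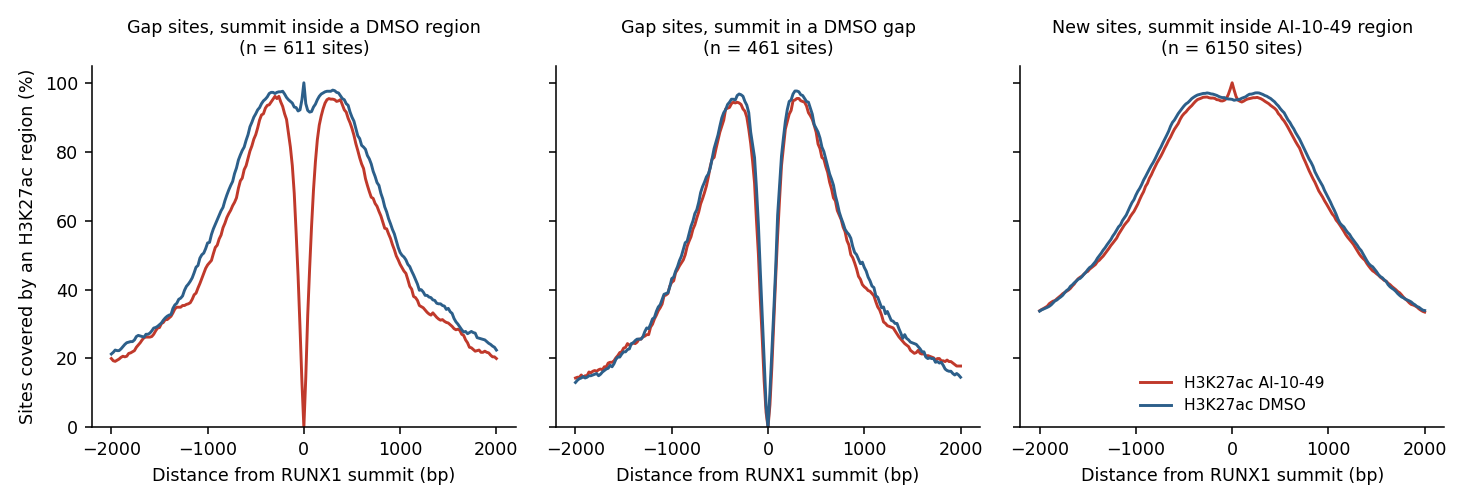
Share of sites covered by an H3K27ac region (%) at each distance from the RUNX1 summit (bp), for AI-10-49 (red) and DMSO (blue) regions. The left panel holds 611 gap sites whose summit was inside a DMSO region, the middle panel 461 gap sites in a DMSO gap, and the right panel the 6150 sites inside AI-10-49 regions. The values at distance 0 are fixed by how the classes were defined, except for the DMSO curve of the right panel. In the left panel the DMSO curve stays above the AI-10-49 curve on either side of the gap. At 500 bp it stands at 91.0% against 84.9% on the left and 90.0% against 86.7% on the right.

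Gaps without such a RUNX1 site served as background. For all 33508 AI-10-49 gaps of up to 2 kb, the midpoint was inside a DMSO region in 42.9% and in a DMSO gap in 29.6%. Gap midpoints at the 1123 sites were inside a DMSO region in 50.8% (47.9 to 53.8) and in a DMSO gap in 44.3% (41.4 to 47.3). By gap width, the share of midpoints in a DMSO gap was 24.9% at RUNX1 gap sites and 15.8% elsewhere for gaps of 45 to 100 bp, and 42.1% and 24.7% for 100 to 200 bp. It was 58.6% and 32.2% for 200 to 300 bp, and 54.5% and 35.2% for 300 to 500 bp. At 500 to 1000 bp, with 38 sites, the order turned, with 23.7% and 36.3%. The share inside a DMSO region had no single order. It was 73.4% at RUNX1 gap sites and 67.2% elsewhere for 45 to 100 bp, 54.7% and 56.6% for 100 to 200 bp, and 36.3% and 42.7% for 200 to 300 bp. For 300 to 500 bp it was 33.8% and 32.9%, and for 500 to 1000 bp 65.8% and 25.6%. Up to 500 bp, gaps with one of the RUNX1 summits thus had the higher share in a DMSO gap in each width class. Other gaps more often lacked DMSO regions: 21.6% of their midpoints had one within 1 kb on 1 side only and 6.69% had none. At the RUNX1 gap sites these shares were 4.1% and 0.712%. The comparison was not matched for this or for the strength of the flanking regions.

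At the 611 sites inside a DMSO region, that region was usually broad and listed as separate regions in AI-10-49. Its median width was 1836 bp (quartiles 1324 and 2754.5). The same DMSO region overlapped both AI-10-49 flanks at 485 sites (79.4%, 75.9 to 82.5) and only 1 flank at the other 126. The summit lay a median of 684 bp from the nearer end of the DMSO region, and 106 of the 611 (17.3%) lay within 50 bp of an end, where a small shift of a boundary decides the class. The RUNX1 summit did not coincide with the DMSO peak of acetylation. The DMSO H3K27ac summit was a median of 314 bp away (quartiles 250 and 404), and it lay in the AI-10-49 gap at 8 of the 611 sites (1.31%). Such an offset was not particular to gap sites. For 5854 AI-10-49-only summits inside a region of both lists the distance had a median of 289 bp (quartiles 202 and 463). After AI-10-49 the nearer flanking H3K27ac summit was a median of 290 bp from the RUNX1 summit over all 1123 sites, and the 2 flanking summits were 708 bp apart.

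How often a summit in a DMSO region ended up in an AI-10-49 gap was set against the covered sequence itself. Of 6819 AI-10-49-only RUNX1 summits inside DMSO regions, 649 (9.52%, 8.83 to 10.2) lay in an AI-10-49 gap, counting also sites whose peak reached no region. Of the 1046 such summits that belonged to sites of both lists, 118 (11.3%, 9.43 to 13.4) did. Of all bases in DMSO regions, 5.48% lay in an AI-10-49 gap. In the reverse direction, 222 of the 6150 summits inside AI-10-49 regions (3.61%) lay in a DMSO gap. For sites of both lists the reverse share was 5.4% (49 of 908), and for all bases in AI-10-49 regions it was 3.84%.

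Because RUNX1 summits lie at a typical distance from H3K27ac summits, the comparison was repeated by distance within the regions that held them. Between 200 and 400 bp from the H3K27ac summit of a DMSO region, 411 of 3175 RUNX1 summits (12.9%, 11.8 to 14.2) were in an AI-10-49 gap, against 4.54% of the bases. In AI-10-49 regions 133 of 2802 RUNX1 summits at that distance (4.75%, 3.99 to 5.6) were in a DMSO gap, against 1.37% of the bases. The ratio of summits to bases was 2.85 in the first direction and 3.48 in the second. At that distance, in regions that held such a summit, RUNX1 summits thus lay in gaps of the other list more often than bases did in both directions. Both summits and bases lay more often in AI-10-49 gaps than in DMSO gaps there. Beyond 800 bp the shares were 5.95% of summits and 4.38% of bases in the first direction and 0.793% and 2.9% in the second.

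**Figure D3:**
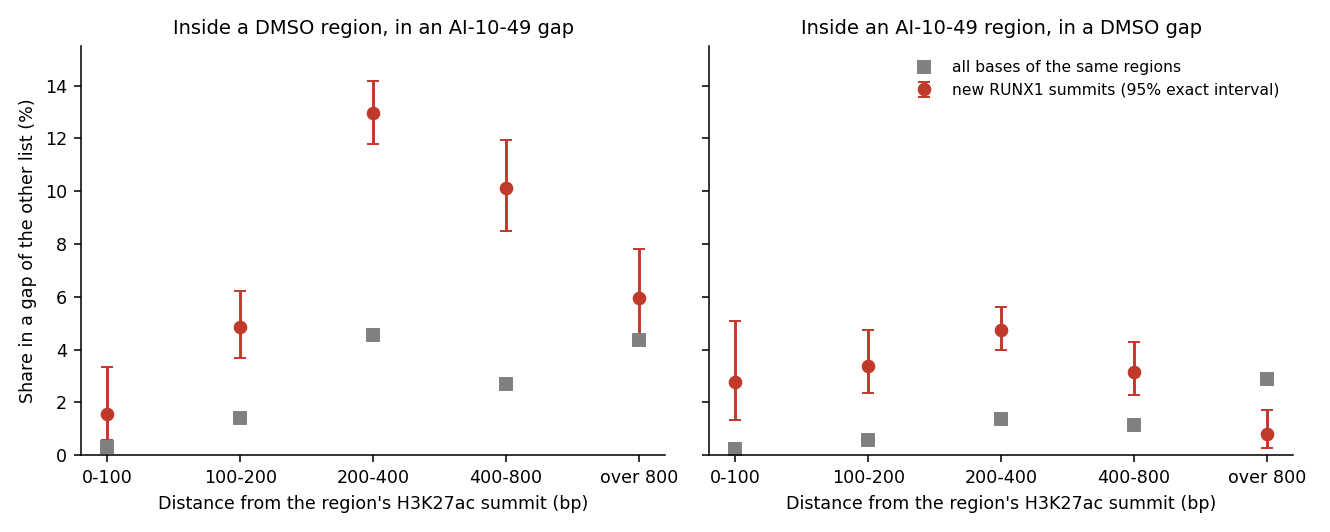
Share (%) of RUNX1 summits of the AI-10-49 list only (red points, bars are 95% exact intervals over sites) and of all bases (grey squares) inside an H3K27ac region that lay in a gap of the other H3K27ac list, by distance from that region's H3K27ac summit (bp). Only regions that held such a RUNX1 summit are included. Points stand above squares at every distance up to 800 bp in both panels, and at 200 to 400 bp they reach 12.9% on the left and 4.75% on the right.

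The share was also taken by width of the region and by strength of the RUNX1 site. In DMSO regions of 1000 to 2000 bp, 15.1% (13.5 to 16.8) of the AI-10-49-only summits lay in an AI-10-49 gap, against 5.71% of bases. In regions of over 4 kb the shares were 4.11% (3.2 to 5.21) and 4.32%, so in the widest regions no excess over the bases was seen. Ranked by RUNX1 summit fragments into 4 equal groups, the share was 8.27% (7.01 to 9.68) in the weakest group (12 to 24 fragments), then 9.03% and 9.8%, and 11% (9.52 to 12.5) in the strongest (44 to 236 fragments). The share rose from group to group. The intervals of the weakest and the strongest group overlapped slightly, which alone does not decide whether they differed.

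At the 461 sites in a gap of both lists the widths can be set side by side. The gap had a median of 205 bp in AI-10-49 (quartiles 150 and 284) and 183 bp in DMSO (quartiles 129 and 247). It was wider in AI-10-49 at 294 sites (63.8%, 59.2 to 68.2) and narrower at 165, and the median difference was 29 bp (quartiles -28 and 85). When gaps of the 2 lists were paired by their midpoints, 58.5% of 8336 pairs without one of these RUNX1 summits were wider in AI-10-49, with a median difference of 33 bp. Of 477 pairs with such a summit, 67.7% (63.3 to 71.9) were wider, with a median difference of 32 bp. Among pairs with a DMSO gap of 100 to 300 bp the shares were 65.3% (59.9 to 70.4) with a RUNX1 summit and 67.8% (66.0 to 69.6) without. The median differences in that class were 22.5 bp with a RUNX1 summit and 43 bp without. The choice required the RUNX1 peak to reach an AI-10-49 region, which by itself favours narrow AI-10-49 gaps. Other gaps had no such limit, so the comparison cannot decide whether a RUNX1 summit went with a wider gap.

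**Figure D4:**
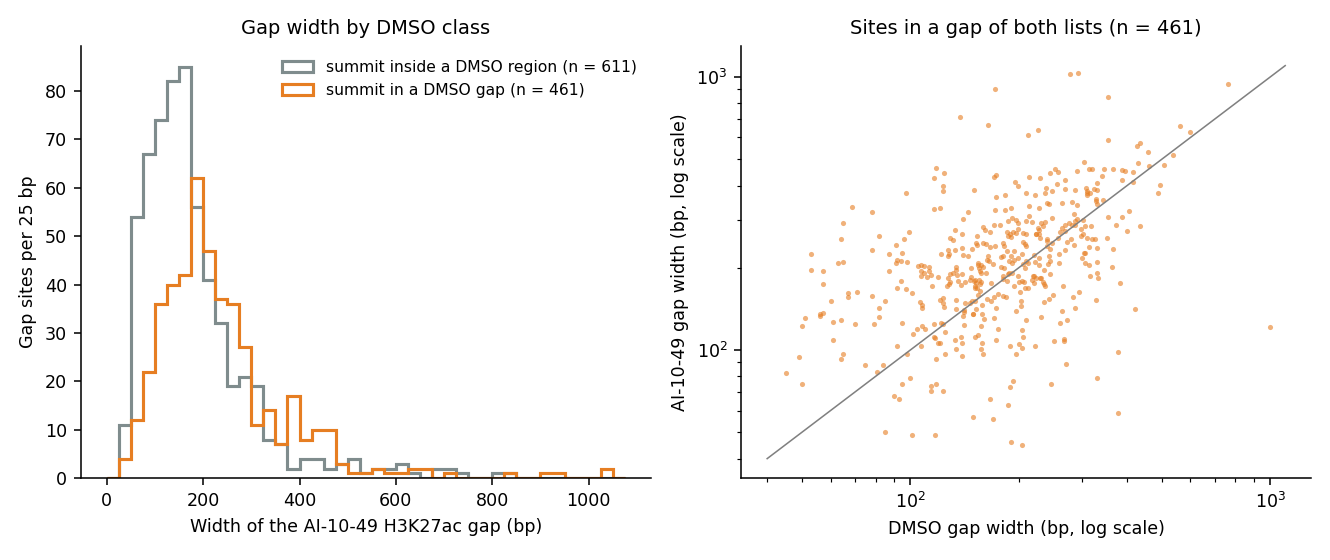
Left, number of gap sites per 25 bp of AI-10-49 gap width (bp) for summits inside a DMSO region (grey) and in a DMSO gap (orange). Right, AI-10-49 against DMSO gap width (bp, both axes logarithmic) for the 461 sites in a gap of both lists, with the line of equal width. Gaps at sites inside a DMSO region were narrower (median 154 bp against 205 bp), and 294 of the 461 points lie above the line.

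The regions beside the gaps were wider and stronger than the typical AI-10-49 region. They had a median width of 732 bp, against 522 bp over all 66350 regions. The stronger of the 2 flanks had a median of 1.73 H3K27ac fragments per M reads at its summit and the weaker 1.03, against 0.757 over all regions. The stronger flank had 1.51 times the fragments of the weaker in the median. A region that covered one of the 6150 other summits had a median of 3.08 fragments per M reads. The same list decided which summits counted as inside a region or in a gap, so these levels describe the choice. At 671 sites (59.8%) both flanks had a −log10 q of at least 10, and at 163 (14.5%) 1 or both had a −log10 q below 5.

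H3K27ac levels beside the gaps were mostly lower in the AI-10-49 library, as they were at AI-10-49-only RUNX1 summits inside a region of both lists. At the 611 sites inside a DMSO region, that region had a median of 2.86 fragments per M reads, the stronger AI-10-49 flank 1.76 and the weaker 1.05. The ratio of the stronger flank to the DMSO region had a median of 0.666 (quartiles 0.533 and 0.856), and it was below 1 at 521 sites (85.3%, 82.2 to 88.0). At the 461 sites in both gaps, the stronger flank had a median of 1.84 fragments per M reads in AI-10-49 and 2.61 in DMSO. The ratio had a median of 0.758 there, and it was below 1 at 365 sites (79.2%, 75.2 to 82.8). For 5854 AI-10-49-only summits inside a region of both lists the median ratio was 0.698, below 1 at 90.7% (90.0 to 91.5). A lower level was thus seen at these summits as well. The DMSO value at the 611 sites is the summit of the whole region. Only the flanking AI-10-49 regions were set against it, which by itself can lower the ratio. No such ratio was taken over all H3K27ac regions, so a shift across the whole library cannot be told apart. The shortest H3K27ac peak, taken as the fragment length, was 1.09 times longer in AI-10-49 than in DMSO, and its part in these ratios was not tested.

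**Figure D5:**
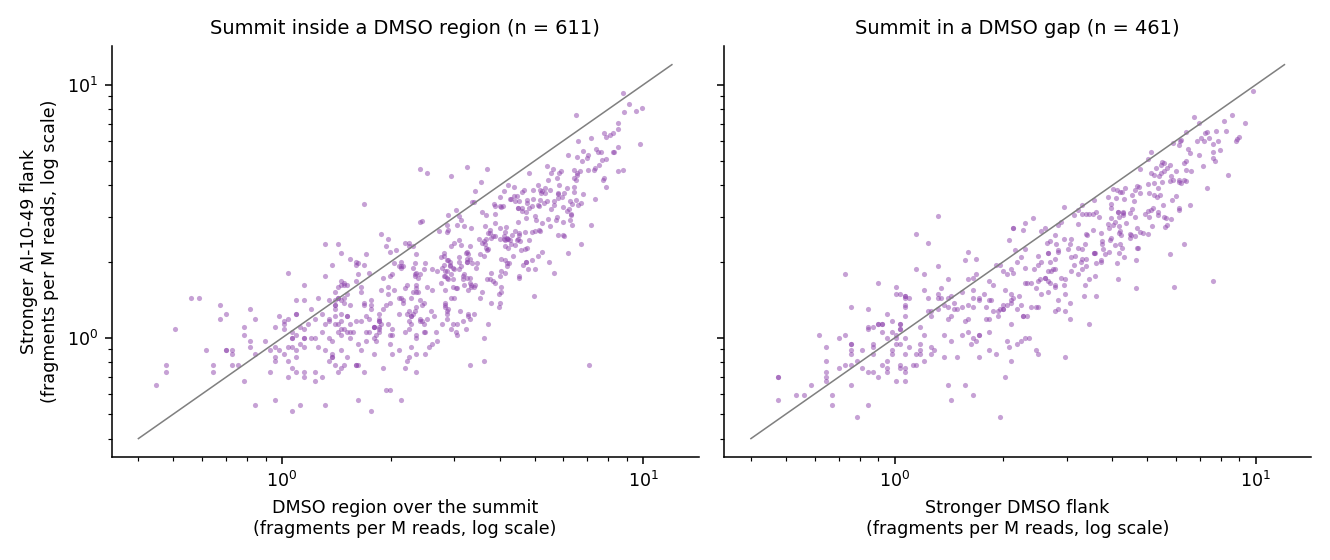
H3K27ac summit fragments per M reads (logarithmic axes) of the stronger AI-10-49 flank against the DMSO region over the summit (left, 611 sites) or the stronger DMSO flank (right, 461 sites), with the line of equal values. Most points lie below the line, with a median ratio of 0.666 on the left and 0.758 on the right.

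The sites were spread over the genome. They lay on 24 chromosomes and in 495 of the 745 cytobands that held a RUNX1 site of the AI-10-49 list only. Of all 8783 such sites, 12.8% were gap sites. Band 19p13.3 held the most gap sites, with 12 of 109 (11.0%, below that share). It was followed by 16p13.3 with 9 of 51 (17.6%) and 8q24.3 with 9 of 62 (14.5%). Leaving out chromosome Y, where 1 of 1 site qualified, the share of AI-10-49-only sites that lay in gaps ran from 8.14% on chromosome 18 to 16.2% on chromosome X.

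The bands of 4 genes tied to this leukemia held 7 of the sites. Over the genome 12.8% of AI-10-49-only sites were gap sites. The count in these bands was not set against that share, so it does not show whether 7 is many or few. In 21q22.12, the band of RUNX1, the site chr21:37297011-37297581 had 23 fragments (interval 14.6 to 34.5) and a gap of 63 bp, with a DMSO region 317 bp to the left and none within 1 kb on the right. In 16q22.1, the band of CBFB, there were 2 sites. At chr16:67595911-67596416 (37 fragments) a DMSO region of 8.07 fragments per M reads ran from 67594734 to 67598825, and AI-10-49 had regions of 2.24 and 6.35 with 161 bp between them. At chr16:70438285-70438665 (50 fragments, fold 16.4) the gap was 108 bp in AI-10-49 and 267 bp in DMSO.

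In 16p13.11, the band of MYH11, the sites chr16:15614656-15614944 (39 fragments, gap 265 bp) and chr16:16046412-16046600 (21 fragments, gap 132 bp) each had a DMSO region within 1 kb on 1 side only. In 8q24.21, the band of MYC, a transcription factor of cell growth, both sites lay in a gap of both lists. The first, chr8:129180089-129180297, had 21 fragments (interval 13.0 to 32.1), with gaps of 119 bp in AI-10-49 and 110 bp in DMSO. The second, chr8:129279803-129280162, had 46 fragments (interval 33.7 to 61.4), with gaps of 296 and 286 bp. At both, the gap was nearly as wide in DMSO as in AI-10-49. A band places a site near a gene only broadly, and no site was assigned to a gene.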

How the data were processed

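ChIP-seq peak lists of RUNX1 and H3K27ac were used for ME-1 cells in DMSO or AI-10-49, with 1 library per group, grouped by sample title. Tools listed in the submitters' processing notes were MACS2 2.1.0, Bowtie2 2.1.0, Picard 1.96, SAMtools 1.3 and CASAVA 1.4, with the build hg19. For each peak the authors deposited a ratio (fold enrichment over local background at the summit), a −log10 p, a −log10 q and a score, the last of which was not used. Which input was used for which call was not stated.

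Overlap meant at least 1 bp, and distances run from the summit to the nearest base of a region. Summit fragments were solved from fold enrichment and −log10 p as MACS2 defines them, and 99.9% to 100% of peaks per list came out whole (recomputed −log10 p within 0.003). The 68 H3K27ac peaks of AI-10-49 that did not were left out of fragment values. Read totals assume a genome size of 2700000000 bp and the shortest peak as fragment length, and fragment values carry exact Poisson intervals. On simulated data 100% of fragment numbers were recovered for each of the 4 lists (2947 to 2980 peaks), and 0 of 900 classes differed from a direct search. Values were computed in Python 3.11.15 (numpy 2.4.6, pandas 2.3.3, scipy 1.17.1, matplotlib 3.10.9). Bands came from circlize 0.4.16.

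The sites, classes and rules were chosen with earlier results of these data known. Named sites are the 15 with the highest RUNX1 −log10 q, the 5 highest in each DMSO class, the 3 nearest each side of the 1 kb limit, and all in 4 bands. Site sequences and a motif search need an hg19 genome and are not given here.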

Additional observations from a re-analysis of the deposited data

How the results depend on the processing

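Of 65 alternative values, 60 stayed close to the reported ones (inside the interval of a share or median, or within 1.5 times for the number of sites) and 5 moved. H3K27ac lists of equal length repeat the main result almost by construction. The number of sites (1123) ran from 969 with H3K27ac −log10 q of at least 5 to 1253 where the peak need not overlap a region. That last setting also moved the median gap width from 177 to 190 bp, since it admits summits in wider gaps. Requiring at least 100 bp to each end of the DMSO region lowered the share inside a DMSO region from 54.4% to 43.2%, by construction. A RUNX1 −log10 q of at least 5 raised the median summit fragments per M reads from 1.05 to 1.11, since it drops weak sites. An H3K27ac −log10 q of at least 5 moved the share of AI-10-49-only summits from a DMSO region in an AI-10-49 gap from 9.52% to 8.35% (bases 3.48%), and the reverse share from 3.61% to 3.12% (bases 2.34%). The cause was not tested. Added with results known were all settings for the 2 shares between lists, for fragments and for the share of wider gaps. So were equal list lengths for the number of sites, and several settings for the gap width and the DMSO classes, among them the setting without overlap that gave 190 bp. No paired analysis was possible because each treatment had 1 library, and no replicate could be left out. The depth of the H3K27ac lists, 0.812 in AI-10-49 relative to DMSO, could not be equalised from peak lists.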
